A study of Canis lupus familiaris with 6 samples.

Results

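ST14, SPINT1, SPINT2 and SPINK5 encode a membrane serine protease and inhibitors of epithelial serine proteases. The 4 genes were taken from the array table as the probe sets whose platform annotation gives exactly 1 symbol equal to one of these names. Each had a single such probe set, so 4 of 15947 genes with 1 symbol and 4 of 32293 probe sets are described. By entrez identifier, the RefSeq table of the dog assembly UU_Cfam_GSD_1.0 lists them under the same symbols, with ST14 on chromosome 5, SPINT1 on 30, SPINT2 on 1 and SPINK5 on 2.

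Matriptase, the product of ST14, is a serine protease anchored in the basolateral and junctional membrane of epithelial cells, where it activates other proteases, growth factors and receptors by cleavage. Its activity is held in check by the transmembrane Kunitz-type inhibitors HAI-1 and HAI-2, the products of SPINT1 and SPINT2, which also inhibit the activators of hepatocyte growth factor. SPINK5 encodes LEKTI, a secreted Kazal-type inhibitor of several domains that restrains kallikrein-related peptidases. In human skin its loss causes Netherton syndrome, with premature shedding of the outer layer.

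The 6 single-colour Affymetrix arrays were made from total RNA of MDCK cells, a dog kidney line that forms polarised epithelial sheets, grown in DMEM with serum. Untreated cells gave 2 arrays, and cells kept with transforming growth factor beta (TGFb, 5 ng/ml, 30 days, with regular subculture) gave 2. TGFb-treated cells given 5-AZA, a name used for azacytidine and for its deoxy form, gave 1 array at 72 hours, and cells 30 days after withdrawal of TGFb gave 1. The labels describe untreated and withdrawn cells as epithelial and TGFb cells as mesenchymal, and do not say whether TGFb stayed on during 5-AZA, whether the 2 arrays of a group were separate cultures, or whether the cells were 1 clone. What the p-values measure is thus the spread among these arrays, and that spread may be technical.

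Values are log2 signals as deposited, read as log2 from their range (0.94 to 13.1), and array medians lay between 4.97 and 5.01. Without a background level the detection limit of a probe set cannot be given, the scale has no true 0, and precision is limited by the number of arrays. Signals of different probe sets are not comparable as levels, so each gene is followed across arrays. Of 9 measured markers of kidney epithelium the adhesion gene CDH1 read 11.53 ± 0.15 (SD, n = 2) in untreated cells, KRT18 10.88 ± 0.13, EPCAM 10.42 ± 0.04 and the kidney genes CDH16 and PAX2 4.82 ± 0.33 and 5.23 ± 0.46. Which of them were present cannot be read from these values alone. RNA was from whole cultures, in which fewer cells with a transcript and less of it per cell cannot be told apart.

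ST14, the protease gene, read 5.74 and 5.35 in untreated cells, 5.08 and 5.10 with TGFb, 5.20 with 5-AZA and 5.45 after withdrawal. All of these values were within 0.66 of each other and within 1 log2 unit of the array medians. The TGFb arrays lay below both untreated arrays and the withdrawal array between the untreated ones.

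SPINT1, encoding HAI-1, read 7.18 and 7.00 in untreated cells, 5.25 and 5.49 with TGFb, 5.64 with 5-AZA and 6.98 after withdrawal. The untreated and withdrawal arrays formed a high set and the TGFb and 5-AZA arrays a low one, with no overlap. SPINT2, encoding HAI-2, had the closest untreated pair, at 10.61 and 10.60, and read 7.47 and 7.86 with TGFb, 8.08 with 5-AZA and 10.05 after withdrawal. Its order over the conditions was the same as that of SPINT1, and its withdrawal array lay below both untreated ones.

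SPINK5 had the widest range of the 4 genes, 7.68 log2 units. It read 11.81 and 11.97 in untreated cells, 4.29 and 6.51 with TGFb, 8.23 with 5-AZA and 9.67 after withdrawal. The TGFb arrays differed from each other by more than 2 log2 units, and the 5-AZA and withdrawal arrays each lay in the gap between the TGFb and the untreated arrays. SPINT1 and SPINT2 were likewise lower on TGFb array 1 than on TGFb array 2.

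**Figure D1:**
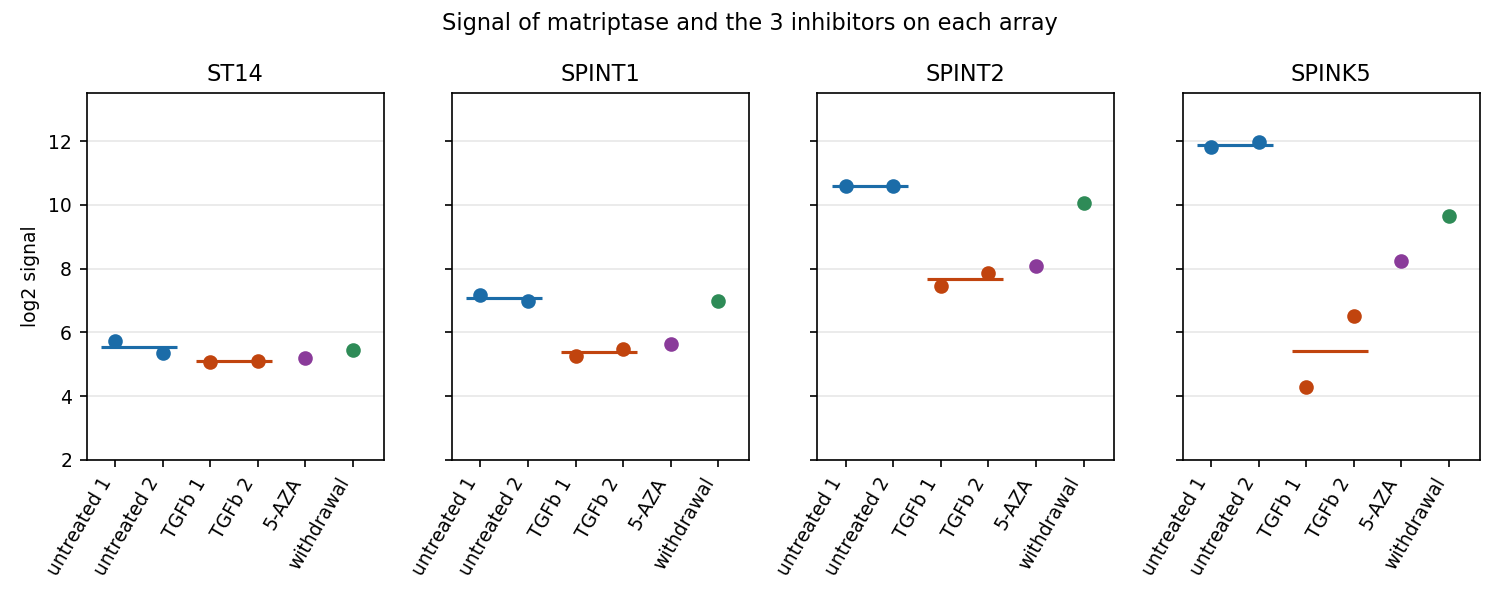
Log2 signal (y axis) of ST14, SPINT1, SPINT2 and SPINK5 on each of the 6 arrays (x axis), 1 point per array, with lines at the mean of the 2 untreated and of the 2 TGFb arrays; heights are not comparable between genes. ST14 stays between 5.08 and 5.74, while SPINK5 spans 4.29 to 11.97.

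The untreated and TGFb arrays compare untreated cells with cells kept for 30 days with the growth factor. With TGFb, all 3 inhibitors fell and the protease did not pass the test. SPINK5 fell by 6.49 ± 0.71 on the log2 scale (standard error of the fit; limma, adjusted p = 0.0291), from 11.89 ± 0.11 to 5.40 ± 1.57 (SD, n = 2 each). SPINT2 fell by 2.94 ± 0.19 (limma, adjusted p = 0.00793), from 10.61 ± 0.004 to 7.66 ± 0.28, and SPINT1 by 1.72 ± 0.17 (limma, adjusted p = 0.0225), from 7.09 ± 0.13 to 5.37 ± 0.17. Linear percentages here and below are converted from log2 differences, with means of 2 arrays taken on the log2 scale. The TGFb signal was 1.11% of the untreated one for SPINK5, 13.0% for SPINT2 and 30.3% for SPINT1. For SPINK5 TGFb arrays 1 and 2 differed from the untreated mean by −7.60 and −5.38. ST14 differed by −0.46 ± 0.19 (95% interval −0.94 to 0.02, limma, adjusted p = 0.36), a signal of 72.9% of untreated. Whether the change of ST14 differed from those of its inhibitors was not tested.

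A difference was called where limma's p, adjusted by the Benjamini-Hochberg method over all 32293 probe sets, was under 0.05. Thus 3 of 4 members were called lower, beside 0.954% of all probe sets, and their median difference was −2.33, beside −0.01 over all probe sets. In all 4 the TGFb arrays lay below both untreated arrays, which held for 23.1% of all probe sets. SPINK5 had the most negative difference of the table, SPINT2 ranked 95th and SPINT1 305th from the lowest. The members were chosen with earlier results of these data known, so this count, median and ranking are descriptive and not independent evidence.

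These calls rested on having both arrays of each group. With either untreated array left out, or TGFb replicate 1, none of the 4 members was called, and without TGFb replicate 2 SPINT2 and SPINK5 were (limma, adjusted p = 0.0432 and 0.0391). The differences themselves moved less, from −5.38 to −7.60 for SPINK5 (rank 9 from the lowest without TGFb replicate 1), −2.75 to −3.14 for SPINT2 and −1.60 to −1.84 for SPINT1.

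**Figure D2:**
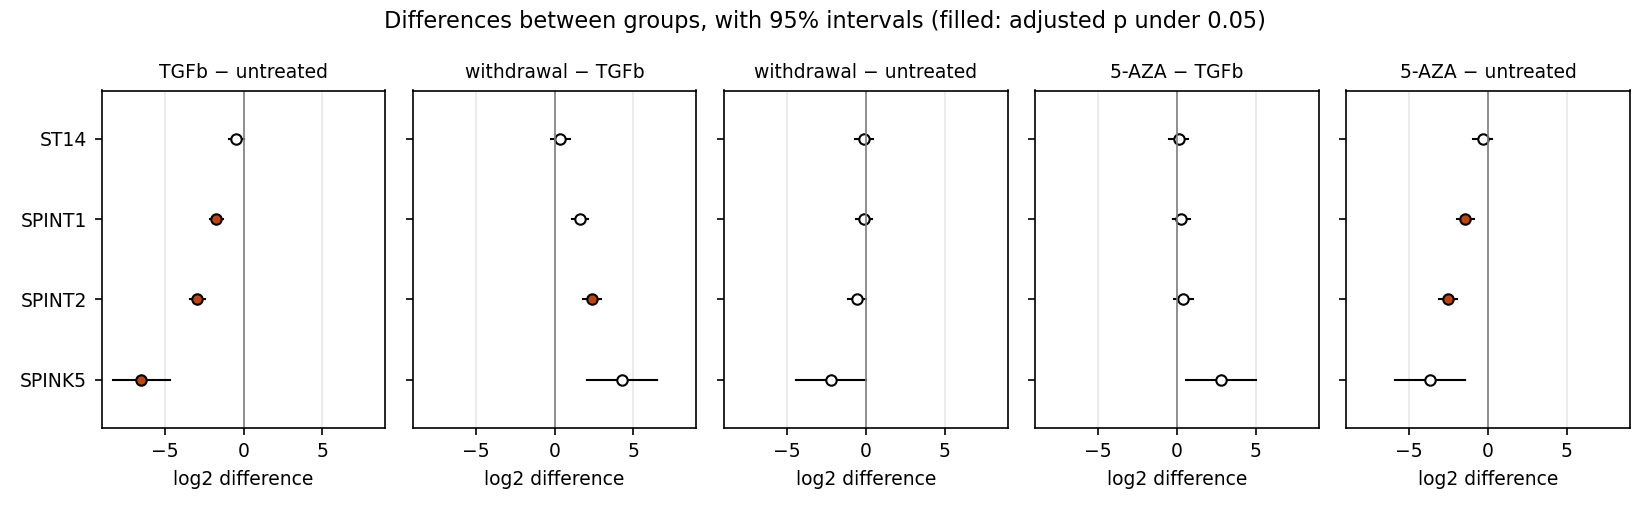
Log2 differences (x axis) of the 4 genes (y axis) in the 5 comparisons, with 95% intervals of the limma fit; filled points have an adjusted p under 0.05. Under TGFb SPINK5, SPINT2 and SPINT1 are filled, at −6.49, −2.94 and −1.72, and no point is filled for withdrawal against untreated or 5-AZA against TGFb.

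Markers of the epithelial and mesenchymal states moved alongside, though not all of them. The mean level of the 9 measured epithelial markers was 8.22 and 8.13 on the untreated arrays and 5.91 and 6.38 on the TGFb arrays. It was 6.35 with 5-AZA and 8.16 after withdrawal. Under TGFb 4 of the 9 were called lower, beside 0.954% of all probe sets. PAX8 (0.59), PAX2 (−0.01) and CDH16 (−0.12) were among those not called. The mean of 8 mesenchymal markers was 5.54 and 5.18, then 8.72 and 8.75, then 9.09 and 5.89. Under TGFb 6 of the 8 were called higher, beside 0.691% of all probe sets, and PDGFRB differed by −0.06. Like the 3 inhibitors, the epithelial markers CDH1 (6.25 and 7.24) and EPCAM (6.46 and 7.73) were lower on TGFb array 1 than on array 2. Mean levels ran from 3.53 to 3.82 for 6 leukocyte markers, of which CD79A was called higher with 5-AZA than in untreated cells (5.04 against a mean of 3.75, limma, adjusted p = 0.0485), and from 4.54 to 5.00 for 4 keratinocyte markers over all arrays. The part of these shifts in the fall of the inhibitors was not tested.

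The withdrawal array asked whether the genes came back once TGFb was removed. It is a single array, assumed to vary like the replicated groups. For SPINK5 those groups did not vary alike (SD 0.11 untreated and 1.57 with TGFb), and the fit pooled them. SPINT2 rose by 2.39 ± 0.23 over the TGFb arrays (limma, adjusted p = 0.0304). SPINK5 (4.27 ± 0.87, limma, adjusted p = 0.137), SPINT1 (1.61 ± 0.21, limma, adjusted p = 0.0555) and ST14 (0.36 ± 0.23, limma, adjusted p = 0.584) did not pass. The call on 1 of 4 members compares with 0.369% of all probe sets called higher. The withdrawal array lay above both TGFb arrays for all 4 members and for 39.9% of all probe sets.

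Calls in this comparison depended on the set of probe sets tested. No member was called without any one of the 4 replicate arrays, with SPINT2 between 2.19 and 2.58. SPINT1 was called among the brighter probe sets alone (adjusted p = 0.0182) and with repeated rows counted once (adjusted p = 0.0493), and SPINT1 and SPINK5 among named genes alone (limma, adjusted p = 0.00512 and 0.0172).

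Set against untreated cells, the withdrawal array carried 92.7% of the linear signal for SPINT1, 93.5% for ST14, 68.1% for SPINT2 and 21.4% for SPINK5. SPINK5 differed by −2.22 ± 0.87 (95% interval −4.45 to −0.002, limma, adjusted p = 0.511) and lay more than 2 log2 units below both untreated arrays. That standard error also carries the spread of the TGFb pair, which is in neither group compared. SPINT2 differed by −0.56 ± 0.23 (−1.14 to 0.03), SPINT1 by −0.11 ± 0.21 (−0.64 to 0.42) and ST14 by −0.10 ± 0.23 (−0.68 to 0.49). The 3 inhibitors lay below both untreated arrays, as did 33.7% of all probe sets, but for SPINT1 the gap to the nearer one was under 0.02. Limma called 0 of the 4 members and 0% of all probe sets here. An unadjusted p under 0.05 was found for 1 member, SPINK5, beside 3154 of all 32293 probe sets. The interval of SPINK5 ended just below 0 while its adjusted p did not pass, and the intervals of the other 3 members included 0, which does not show a complete return.

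The 5-AZA array asked what the demethylating agent changed in TGFb-treated cells. It too is a single array, so every p against it takes its spread from the untreated and TGFb pairs. SPINK5 stood 2.83 ± 0.87 above the TGFb mean (limma, adjusted p = 0.259, unadjusted p = 0.022), and 3.94 and 1.72 above TGFb arrays 1 and 2 taken singly. SPINT2 differed by 0.41 ± 0.23 (95% interval −0.17 to 1.0), SPINT1 by 0.27 ± 0.21 (−0.26 to 0.81) and ST14 by 0.12 ± 0.23 (−0.47 to 0.70). Limma called 0 of the 4 members, beside 0.855% of probe sets called higher. Of the members 1 had an unadjusted p under 0.05, as did 4421 of all 32293 probe sets. All 4 lay above both TGFb arrays, as did 35.7% of all probe sets.

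Against untreated cells the 5-AZA array stayed low. SPINT2 fell by 2.53 ± 0.23 (limma, adjusted p = 0.0108) and SPINT1 by 1.45 ± 0.21 (limma, adjusted p = 0.0346), while SPINK5 (−3.66 ± 0.87, limma, adjusted p = 0.109) and ST14 (−0.34 ± 0.23, limma, adjusted p = 0.537) did not pass. Thus 2 of 4 members were called lower, beside 1.41% of all probe sets, and all 4 lay below both untreated arrays, beside 40.6%. The linear signal with 5-AZA was 36.7% of untreated for SPINT1, 17.3% for SPINT2 and 7.9% for SPINK5. The SPINT1 call ended without any one of the 4 replicate arrays and the SPINT2 call with either untreated array left out. SPINK5 was called with either TGFb array left out (adjusted p = 0.0197), where the spread among arrays comes from the untreated pair alone, and among named genes alone (limma, adjusted p = 0.0193). The TGFb-untreated, 5-AZA-untreated and withdrawal-untreated comparisons share the untreated arrays.

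Matriptase belongs to a family of membrane-anchored serine proteases, of which 15 of 20 listed genes were measured. PRSS8, encoding prostasin, a partner of matriptase in epithelia, was not analysed here. Under TGFb 2 of the 15 were called lower and none higher (median −0.31), beside 0.954% and 0.691% of all probe sets. TMPRSS4, a transmembrane serine protease, read 9.13 and 8.29 in untreated cells, 5.50 and 5.49 with TGFb, 5.25 with 5-AZA and 7.94 after withdrawal. It fell by 3.22 ± 0.30 under TGFb (limma, adjusted p = 0.0197), and all untreated values lay above all TGFb values. TMPRSS13, of the same family, fell by 1.49 ± 0.18 (limma, adjusted p = 0.0383), from 5.87 and 6.18 to 4.65 and 4.42. Both were also lower with 5-AZA than in untreated cells, by 3.46 ± 0.37 and 1.62 ± 0.23 (limma, adjusted p = 0.0164 and 0.0324). The TGFb call of TMPRSS13 was lost without any one of the 4 replicate arrays (limma, adjusted p = 0.109 to 0.194), and that of TMPRSS4 without either TGFb array (up to 0.165). The 5-AZA calls of both genes were lost in the same fits. HPN, encoding hepsin, differed by −0.31 ± 0.21 under TGFb. Limma called 0 of the 15 in either direction for withdrawal against TGFb (5 at an unadjusted p under 0.05) and for 5-AZA against TGFb (1 at that level). Over all probe sets 0.839% and 1.04% were called in these comparisons. An unadjusted p under 0.05 was found for 4372 and 4421 of all 32293 probe sets, respectively.

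Of 16 listed substrates of matriptase and their partners 15 were measured, and 1 was called lower and none higher under TGFb (median −0.31), beside 0.954% and 0.691% of all probe sets. It was EPCAM, an epithelial adhesion molecule that matriptase cleaves, which fell by 3.32 ± 0.42 (limma, adjusted p = 0.0402), from 10.44 and 10.39 to 6.46 and 7.73. This call held only without TGFb replicate 2 among the fits that left out 1 array (limma, adjusted p = 0.0391 to 0.17). F2RL1, encoding the protease-activated receptor PAR2, differed by −1.12 ± 0.31 (limma, adjusted p = 0.203). MET, the receptor of hepatocyte growth factor, differed by −0.55 ± 0.15, the urokinase gene PLAU by −0.31 ± 0.21 and the sodium channel subunit gene SCNN1A by −0.54 ± 0.15, and none of them passed. With 5-AZA, 2 of the 15 were called higher than with TGFb, beside 0.855% of all probe sets. HGF, encoding hepatocyte growth factor, rose by 1.99 ± 0.18 (limma, adjusted p = 0.0189), from 3.59 and 3.61 to 5.59. PDGFC, a growth factor gene of the PDGF family, rose by 3.90 ± 0.19 (limma, adjusted p = 0.00436), from 3.78 and 3.98 to 7.78. The 5-AZA array stood apart for both, since the other 5 arrays stayed below 4. The HGF call was lost without any one of the 4 replicate arrays (limma, adjusted p = 0.0716 to 0.166) and the PDGFC call without either TGFb array.

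The measured genes of the proteases that LEKTI restrains, and of their substrates, were not called. Of 14 listed kallikreins, related proteases and their desmosomal substrates 8 were measured, with means over the 6 arrays between 3.55 and 4.80, and KLK7 was not analysed here. KLK5, the kallikrein that LEKTI is best known to inhibit in human skin, read 3.81 and 3.53 in untreated cells and 4.18 and 3.55 with TGFb. Limma called 0 of the 8 in any of the 5 comparisons, beside 0% to 3.65% of all probe sets called in either direction. With so few calls over all probe sets, 0 of 8 says little about these genes. Under TGFb 0 of the 8 had an unadjusted p under 0.05, beside 4793 of all 32293 probe sets. DSG1, a desmosomal cadherin, read 4.82 after withdrawal and 3.25 to 3.68 on the other 5 arrays (1.36 ± 0.24 against TGFb, limma, adjusted p = 0.106).

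**Figure D3:**
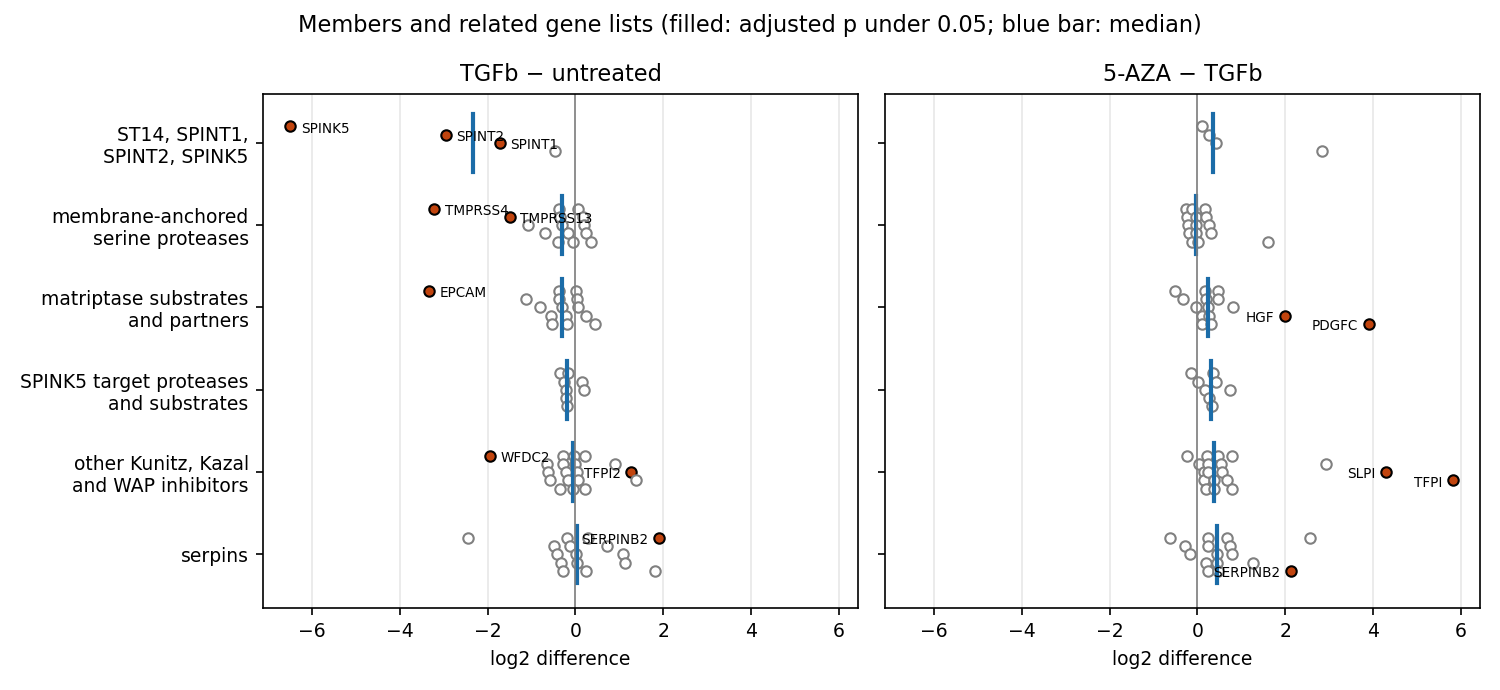
Log2 differences (x axis) of the 4 members and the measured genes of 5 related lists (y axis, points spread vertically for visibility) for TGFb against untreated and 5-AZA against TGFb; filled and named points have an adjusted p under 0.05 and blue bars are list medians. The median is −2.33 for the members under TGFb and between −0.31 and 0.03 for the lists.

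Other inhibitors went in both directions. Of 24 listed symbols of further Kunitz, Kazal and WAP-domain inhibitors 19 genes were measured, and under TGFb 1 was called higher and 1 lower (median −0.06), beside 0.691% and 0.954% of all probe sets. TFPI2, a Kunitz-type inhibitor of the matrix, rose by 1.28 ± 0.15 (limma, adjusted p = 0.0327), from 9.76 and 9.73 to 10.96 and 11.08. WFDC2, a WAP-domain protein of epithelial secretions, fell by 1.94 ± 0.25 (limma, adjusted p = 0.0422), from 7.98 and 7.35 to 5.84 and 5.62. Both calls were lost without any one of the 4 replicate arrays, with adjusted p between 0.12 and 0.19 for TFPI2 and between 0.0664 and 0.22 for WFDC2 (limma). Its withdrawal value of 5.60 lay at the level of the TGFb arrays (−0.13 ± 0.31 against TGFb), unlike those of SPINT1 and SPINT2. Limma called 0 of the 19 between withdrawal and TGFb, beside 0.839% of all probe sets. Of the 19, 4 had an unadjusted p under 0.05, beside 4372 of all 32293 probe sets.

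With 5-AZA, 2 of these 19 genes were called higher than with TGFb and none lower (median 0.39, beside −0.02 over all probe sets), where 0.855% and 0.189% of all probe sets were called higher and lower. TFPI, the Kunitz-type tissue factor pathway inhibitor, rose by 5.81 ± 0.29 (limma, adjusted p = 0.00436), from 3.79 and 3.18 to 9.30. SLPI, a secreted inhibitor of leukocyte proteases, rose by 4.29 ± 0.27 (limma, adjusted p = 0.00676), from 4.74 and 5.24 to 9.28. Both calls were lost without either TGFb array. Neither had differed under TGFb beyond 0.23. Against untreated cells 5 of the 19 were called higher with 5-AZA, beside 2.24% of all probe sets. They were TFPI, SLPI, the Kazal-type gene SPINK2 (2.90 ± 0.38, limma, adjusted p = 0.0283), TFPI2 and RECK, the last named here after its values were seen. The SPINK2 call was lost without either TGFb array and the TFPI2 and RECK calls without any one of the 4 replicate arrays. On the same array the endothelial marker PECAM1 read 6.57, against 3.24 to 3.62 on the other 5, and the leukocyte marker CD79A read 5.04, against 3.44 to 3.77, while the other 4 endothelial markers were not called in any comparison. The part of these shifts in the inhibitor values was not tested.

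Serpins, a separate family of which many but not all members inhibit proteases, counted 16 measured of 21 listed. Under TGFb 1 was called higher and none lower (median 0.03), beside 0.691% and 0.954% of all probe sets. SERPINB2, an inhibitor of urokinase, read 3.17 and 2.92 in untreated cells, 4.82 and 5.05 with TGFb, 7.06 with 5-AZA and 3.18 after withdrawal. It rose under TGFb (1.89 ± 0.18, limma, adjusted p = 0.0196) and again with 5-AZA (2.13 ± 0.22, limma, adjusted p = 0.029). On withdrawal it fell by 1.76 ± 0.22 (limma, adjusted p = 0.0493), the only called serpin in that comparison, beside 0.471% of all probe sets called lower. These 3 calls of SERPINB2 were lost without any one of the 4 replicate arrays. SERPINE2, an inhibitor that acts on prostasin and urokinase, differed by 1.13 ± 0.34 under TGFb (limma, adjusted p = 0.228). The largest serpin difference under TGFb was a fall that did not pass. It was that of SERPINB5, named here after its values were seen (−2.44 ± 0.43, limma, adjusted p = 0.0792). SERPINB5 had a mean of 8.61 in untreated cells and 6.17 with TGFb, and read 8.86 after withdrawal. By direction alone, 7 of the 16 serpins differed downward under TGFb and 9 upward. Against untreated cells 3 of the 16 serpins were called higher with 5-AZA and none lower, beside 2.24% and 1.41% of all probe sets. They were SERPINF1 (4.36 ± 0.38, limma, adjusted p = 0.0101), SERPINB2 (4.02 ± 0.22, limma, adjusted p = 0.00293) and the collagen chaperone SERPINH1 (1.56 ± 0.21, limma, adjusted p = 0.0307), whose call was lost without any one of the 4 replicate arrays.

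**Figure D4:**
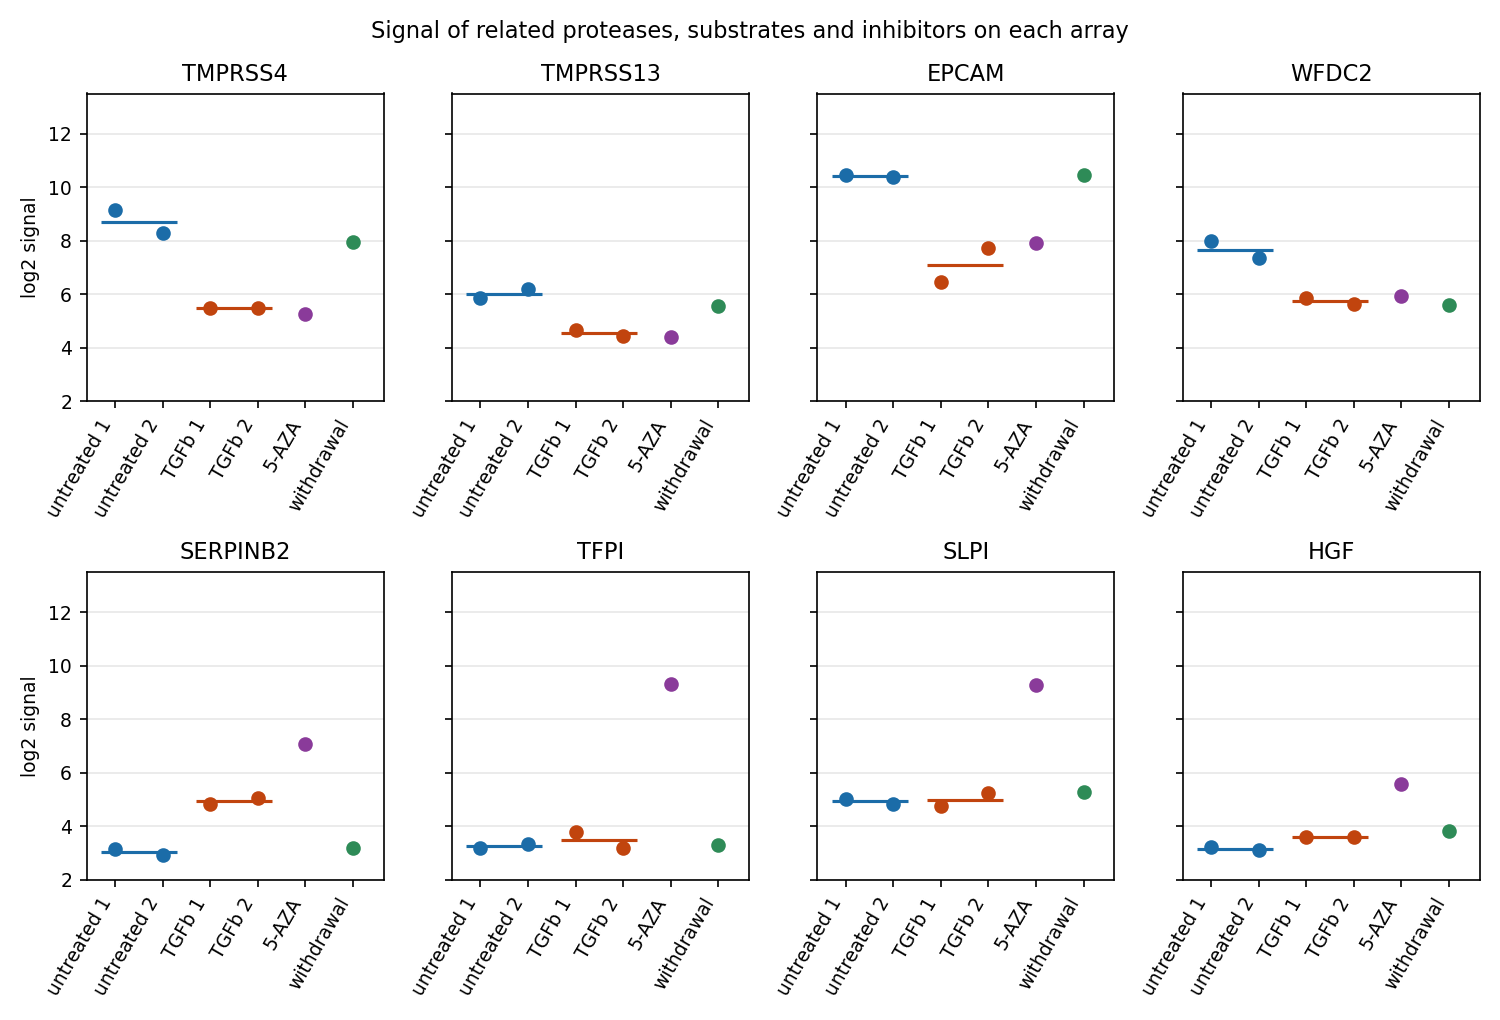
Log2 signal (y axis) on each of the 6 arrays (x axis) of 8 related genes, chosen after their values were seen, with lines at the mean of the 2 untreated and of the 2 TGFb arrays. TMPRSS4, TMPRSS13, EPCAM and WFDC2 are lower on the TGFb than on the untreated arrays, and TFPI, SLPI and HGF are highest on the 5-AZA array, at 9.30, 9.28 and 5.59.

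Genes with the most similar profiles were ranked by the root mean square difference over the 6 arrays, after each profile was centred on its mean, among 15946 other named genes. SPINT1 was closest to ZBTB8B (0.09 log2 units), PIGN (0.11), an enzyme of GPI-anchor synthesis, and PLXNB1 (0.12), a semaphorin receptor. SPINT2 was closest to RNF144B (0.12), TXNIP (0.15), a thioredoxin-binding protein, and SCARB2 (0.21), a lysosomal membrane protein. SPINK5 had no match of that closeness, and its nearest profiles were ALDH1A1 (0.87), a retinaldehyde dehydrogenase, TSPAN8 (0.91) and TC2N (0.99). The measure is not scaled to a gene's spread, so distances are not comparable between members. The SD over the 6 arrays was 3.03 for SPINK5, 0.88 for SPINT1 and 1.46 for SPINT2. ALDH1A1 fell from a mean of 9.63 in untreated cells to 4.04 with TGFb, and read 6.06 with 5-AZA and 6.54 after withdrawal. ST14 varied too little for such a ranking (SD 0.25, under the minimum of 0.5).

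Chromosomal neighbours of the 4 genes were also followed. Of the 2 nearest protein-coding genes on each side in the UU_Cfam_GSD_1.0 table, 13 of 16 were measured. Under TGFb their differences lay between −0.66 and 0.22, and limma called 0 of them (smallest adjusted p = 0.253), beside 1.64% of all probe sets. SCGB3A2 and C2H5orf46, beside SPINK5, differed by 0.19 and 0.01, and the genes on the other side of SPINK5 were not measured. With 5-AZA against untreated, 1 neighbour was called, PPP1R14D beside SPINT1 (−1.20, limma, adjusted p = 0.0476), whose TGFb difference was −0.25. In that comparison 3.65% of all probe sets were called in either direction. Whether the PPP1R14D call held without single arrays was not examined.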

How the data were processed

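Affymetrix Expression Console 1.2 made the values, per the submitters' processing notes. The deposited table gives 1 log2 value per probe set and array. The log base was read from the range of values, while the summary method and background correction were not given in the sources used. Platform annotation gave 1 symbol for 16545 of 32293 probe sets, several for 370 and none for 15378, and 15820 matched RefSeq identifiers.

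A model with 1 mean per group was fitted across the 6 arrays (limma 3.58.1, R 4.3.3; lmFit, eBayes without trend, not robust, 2 residual and 3.10 prior degrees of freedom, no replicate block, no signal filter), with Benjamini-Hochberg adjustment over all probe sets. The fit was tested on simulated data. Replicate numbers were not used to pair the samples. Only 2 pairs exist, and same-numbered deviations correlated at 0.10. That value is the same for both pairs by construction, so it cannot show whether the samples were paired. Where a gene had several probe sets, the brightest was used.

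The 4 members and the 5 related lists were chosen with earlier results of these data known. SPINK5 had already been seen among the largest TGFb decreases, so its p and rank are not independent evidence. The same holds for the counts and medians of the members. Genes named were the members, up to 3 called genes with the largest difference per list and comparison, a set of anchor genes, and the 3 nearest profiles per member. Averaging several probe sets was not applicable, as each member has 1. Sequences of the 4 genes were not used here.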

Additional observations from a re-analysis of the deposited data

How the results depend on the processing

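Quantile normalization, median centring, an intensity trend and robust moderation left the number of members called as it was in all 5 comparisons. A replicate block on the 4 untreated and TGFb arrays gave 3 members and 712 probe sets for TGFb against untreated, beside 3 and 531 without it. No paired analysis was possible for the other comparisons, because their single arrays share fewer than 2 replicate numbers with the other group. Testing only the 16147 brighter probe sets gave 1001 called probe sets for TGFb against untreated, 649 for withdrawal against TGFb (2 members) and 110 for 5-AZA against TGFb. Testing named genes alone gave 1228, 907 (3 members) and 682 for these comparisons and 58 for withdrawal against untreated. With repeated rows counted once, chosen after seeing the data, 2 members were called for withdrawal against TGFb. Leaving out 1 replicate array at a time gave 0 to 2 members and 0 to 129 probe sets for TGFb against untreated, 0 members and 0 to 97 probe sets for withdrawal against TGFb, 0 and 0 to 137 for 5-AZA against TGFb, and 0 to 2 and 346 to 435 for 5-AZA against untreated. Such fits leave 1 residual degree of freedom. Of 224 recomputed member differences 196 kept direction and side of the threshold, 20 lost and 7 gained the call, and 1 turned. That was ST14 for withdrawal against untreated, which ran from −0.29 to 0.10 over the left-out arrays (0.10 without untreated replicate 1) beside −0.10. Of 24 calls of the related genes, 18 were lost without at least 1 left-out array and 6 in none of those fits (HGF, PDGFC, TFPI, SLPI, SERPINF1 and SERPINB2 for 5-AZA against untreated). SERPINB2 for withdrawal against TGFb was also lost under robust moderation, and no call turned direction. The signal over background behind each probe set is unknown, so whether ST14 was above background cannot be said.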
